A study of Mus musculus with 5480 samples.

Results

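Contractile mesenchymal cells of the mouse lung were compared across birth, between cells labelled as myofibroblast and smooth muscle precursors at embryonic day 18.5 (E18.5) and cells labelled as myofibroblasts on postnatal day 1 (P1). The members were all cells with these subtype labels at these ages, 295 of the 5480 cells in the series. They comprised 224 precursors, 101 from a female and 123 from a male mouse, and 71 myofibroblasts, 39 from a female and 32 from a male mouse. All 4 mice belonged to the normal air arm of a study of neonatal lung development and hyperoxia, and their strain and genotype are not given in the sources used here. Sorted single cells of the distal lung had been sequenced on plates, and the values were whole-number read counts per gene. Myofibroblasts of 4 further mice on postnatal day 7 (P7), a female and a male in normal air and a female and a male in hyperoxia (oxygen-enriched air), entered the fit for the spread between mice.

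Alveolar myofibroblasts are contractile cells that express smooth muscle actin and the PDGF receptor alpha, and they are known for depositing elastin at the tips of the septa that subdivide the distal airspaces around birth. Airway smooth muscle cells wrap the conducting airways and contract through the same actin and myosin apparatus. Both arise from mesenchyme under signals from the epithelium, among them PDGF-A, Hedgehog, FGF and Wnt ligands. Glucocorticoids rise in the fetus shortly before birth and act on lung mesenchyme through a nuclear receptor that binds DNA.

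Counts were summed per mouse and subtype, because cells of 1 mouse are not replicates. The summed libraries held 85991567 and 126513080 reads for the female and male precursors, and 22397170 and 30183225 reads for the female and male myofibroblasts. A precursor had a median of 3343 detected genes (female) or 3904 (male), and a myofibroblast 3162 or 2408. Females and males had been sequenced in separate runs at both ages, so sex and run cannot be told apart, and each sex gives the difference within its own run (1 female precursor came from another run). Levels below are CPM (read counts scaled to a common library size) with edgeR's TMM scaling, given in the order female precursors, male precursors, female myofibroblasts, male myofibroblasts unless another scale is named. They are not divided by gene length, so levels of different genes are not compared.

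The labels were checked against marker genes. Both subtypes had high counts of the contractile markers Acta2 and Tagln. The 13 myofibroblast markers summed to 17126 and 17145 CPM of all reads in the precursors and to 17050 and 18394 in the myofibroblasts, and 0 of them were absent from any of these libraries. In early airway smooth muscle at P1 the same list summed to 31962 and 35353 CPM, so its sum did not set the myofibroblasts apart from that class. Acta2 and Tgfbi weighed most in these sums. Stc1 and Pdgfra were higher in the P1 myofibroblasts than in airway muscle in both mice, and the other members were lower. The 12 airway smooth muscle markers summed to 2239 and 2098 CPM in the precursors, 3081 and 3731 in the myofibroblasts and 10233 and 10668 in airway muscle, which was thus higher on that list. The 10 endothelial markers summed to 156 and 178 CPM in the precursors and to 268 and 198 in the myofibroblasts, with Cdh5, Kdr, Tie1 and Tek at 0 in both myofibroblast libraries. The 12 epithelial markers summed to 66.1 and 50.6 against 84.5 and 136 CPM, with Epcam and Nkx2-1 at 0 in both myofibroblast libraries. The 10 immune markers summed to 14.2 and 16.5 against 40.7 and 70.4 CPM, with Tyrobp and Cd74 at 0 in both. Other members of these lists had reads in both myofibroblast libraries: Pecam1, Egfl7, Ramp2, Cdh1, Cldn18, Ager, Ptprc, Lyz2, Csf1r and Cd68. In the precursors Tek and Cd52 were at 0 in both libraries. The myofibroblast libraries held fewer reads, so a gene is more easily at 0 there. The sums of all these lists were higher in the myofibroblasts. The part of these other cell types in the results was not tested. Most subtype labels are tied to an age. How the subtypes had been assigned is not given in the sources used here, and genes used to draw them would differ between them by construction.

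Of 14205 genes tested with edgeR's quasi-likelihood test, 359 (2.53%) passed an adjusted p of 0.05. In P1 myofibroblasts 205 genes (1.44%) were higher and 154 (1.08%) were lower than in E18.5 precursors. The median log2 fold change over all genes was -0.18. Among the 359 genes, 357 changed in the same direction within the female run and within the male run, and the same 357 had no overlap between the groups. Of all 14205 genes tested, 8806 changed in the same direction in both runs and 50.1% had no overlap. The calls were made on these same libraries, so this is a description and not separate support. The exceptions were Stmn3 and Serpina3g, each seen in 1 myofibroblast library only, at 80.8 CPM in the female and 61.4 CPM in the male. These were named after their values had been seen. The count rested on the spread of all 8 libraries (3 residual degrees of freedom): 6 genes passed without the female E18.5 library, 0 without the male E18.5 library (1734 at an unadjusted p under 0.05), 203 without the female P1 library and 101 without the male P1 library. Leaving out any 1 of the P7 libraries gave 124 to 152, leaving out both hyperoxia libraries 154, and the 4 libraries of the contrast alone 0 (2083 at an unadjusted p under 0.05). With DESeq2 2223 genes passed, 872 higher and 1351 lower, with 354 of the 359 genes among them. In simulated data of this design with 200 genes changed, 137 of 230 DESeq2 calls were false at 4-fold and 219 of 407 at 16-fold. That share depends on how many genes were set to change, so it does not give the false share of the 2223. With the mean CPM of single cells and limma, 167 were higher and 325 lower. When precursors, myofibroblasts and early airway smooth muscle of an age were joined, 434 genes passed, 211 higher and 223 lower. Of the 359 genes, 245 were among them. Early airway smooth muscle entered these joined contractile cells only at the ages after birth, so the joined changes also include its levels. Vascular smooth muscle and proliferating myofibroblasts were left out. Genes named in this text that did not pass with the cells joined included Exo1, Ecscr, Adap1, Rtn2, Ltbp4, P4ha3, Wif1, Dusp1, Mcm5, Uqcrq, Prdx1, Ryr3, Net1 and Stmn3.

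**Figure D1:**
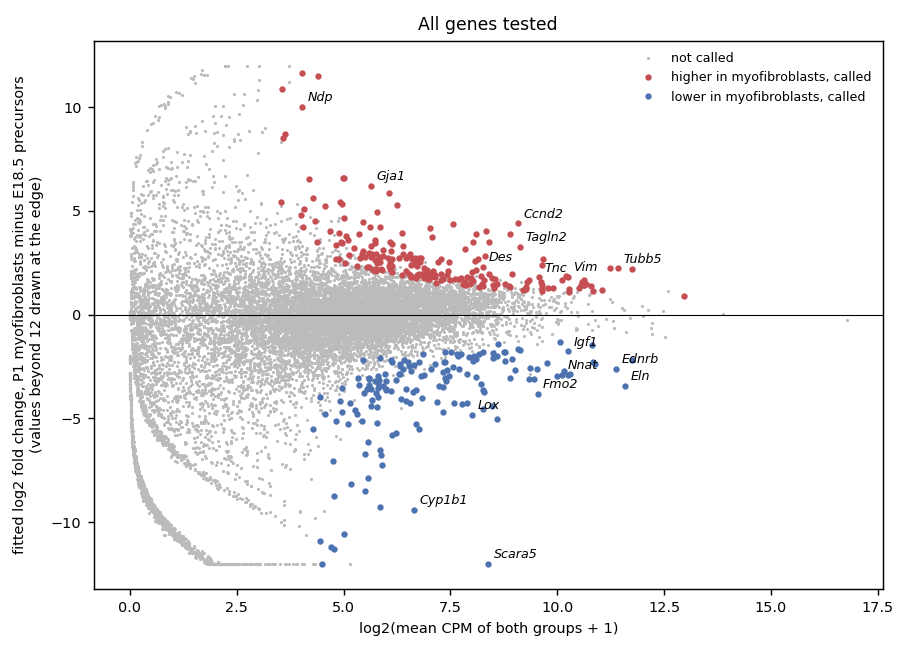
Fitted log2 fold change of each of the 14205 genes tested (vertical axis, P1 myofibroblasts minus E18.5 precursors) against the log2 of the mean CPM of both groups plus 1 (horizontal axis), with the 205 genes called higher in red, the 154 called lower in blue and all others in grey. Eln and Ednrb lie at high levels among the lower genes, and Tubb5, Vim and Ccnd2 among the higher genes.

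The genes with the strongest evidence of a rise were led by Ccnd2, the D-type cyclin that drives entry into the cell cycle. Its level was 53.2 and 44.2 CPM in the precursors and 878 and 1182 CPM in the myofibroblasts. Both myofibroblast values lay far above both precursor values (log2 fold change 4.40, SE 0.30, edgeR adjusted p 0.000114). With every cell reduced at random to 100000 reads (thinning), 18.8% and 18.3% of precursors and 82.4% and 74.1% of myofibroblasts had a Ccnd2 read. Without thinning the shares were 21.8% and 22.8% against 79.5% and 68.8%. The rise was seen in many cells, and the cell with the most Ccnd2 reads held 15.7% of them in the female and 17.2% in the male myofibroblasts. Ccnd1, a second D-type cyclin, was at 3.64 and 5.38 CPM in the precursors and at 112 and 70.4 CPM in the myofibroblasts (log2 4.24, SE 0.49, edgeR adjusted p 0.00177). Cdkn1a, an inhibitor of cyclin-dependent kinases, moved the other way, from 683 and 484 to 16.9 and 67.2 CPM (log2 -3.74, SE 0.48, edgeR adjusted p 0.00321). Ccnd1 and Cdkn1a belong to no list and were chosen after their values had been seen.

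The 10 largest fitted rises among called genes with at least 10 CPM in a group and the same direction in both sexes were Ackr3, Ndp, Exo1, Lrrc15, Ecscr, Ccl2, Dscc1, Gja1, Asns and Ung. All were at 5.73 CPM or less in both precursor libraries. Gja1, which encodes the gap junction protein connexin 43, went from 0.541 and 1.89 to 112 and 80.4 CPM (log2 6.22, SE 0.76, edgeR adjusted p 0.00216). Of the thinned cells, 2.0% and 5.0% of precursors and 29.4% and 22.2% of myofibroblasts had a Gja1 read (6.93% and 10.6% against 33.3% and 18.8% without thinning). Ndp, which encodes the secreted ligand norrin, was at 0 and 0.0464 CPM in the precursors and at 32.2 and 29.4 CPM in the myofibroblasts (edgeR adjusted p 0.00814). Asns, which makes asparagine, was at 5.73 and 0.00773 against 118 and 139 CPM (edgeR adjusted p 0.00382). Of its myofibroblast reads, 1 cell held 65.9% in the female and 72.8% in the male. Ackr3, a scavenging chemokine receptor, had 2 reads in all precursors and 1030 in the myofibroblasts, a ratio per read sequenced of 2081 (exact 95% interval 575 to 17210, counting error only). Exo1, Dscc1 and Ung act in DNA replication and repair. Of the Exo1 reads, 1 cell held 80.2% in the female and 100% in the male, and of the Lrrc15 reads, 97.9% and 98.8%. Ackr3 was read in 5 of 39 and 3 of 32 myofibroblasts and Ndp in 5 and 4. In the male mouse 3 cells held at least 92.3% of the reads of Ackr3, Ndp, Exo1, Lrrc15, Ecscr, Ccl2, Dscc1, Asns and Ung, and 84.8% of those of Gja1. In the female 3 cells held 100% of the reads of Exo1, Lrrc15 and Dscc1, and at least 85.7% of those of Ackr3, Ccl2, Asns and Ndp. For Ecscr, Ung and Gja1 they held 77.8%, 68.4% and 68.1%. The rises of these genes thus rest on few cells in the male, and most of them also in the female. Gja1 was read in the most cells, 13 of 39 in the female and 6 of 32 in the male.

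The 10 largest fitted falls by the same rule were Scara5, Col9a2, Jam2, Fbln7, Adap1, Mchr1, Cyp1b1, Csgalnact1, Cacna1e and Rtn2. Scara5, a ferritin receptor of the scavenger class, was at 640 and 692 CPM in the precursors, where 85.1% (95% Wilson interval 76.9% to 90.8%) and 82.1% (74.4% to 87.9%) of cells had a read. It had 0 reads in the 71 myofibroblasts, with upper limits of 8.97% of cells in the female and 10.7% in the male (95% Wilson, cells with a read), and its level was at least 11874-fold lower (against 3 counts over both libraries). Cyp1b1, a cytochrome P450 enzyme that metabolizes steroids and retinoids, fell from 264 and 131 CPM to 0.613 and 0 CPM (edgeR adjusted p 0.00242). Csgalnact1, which starts chondroitin sulfate chains, fell from 101 and 125 CPM to 0.175 and 0.221 CPM (edgeR adjusted p 0.00902). Col9a2, a collagen IX chain, had 9188 reads in the precursors and 0 in the myofibroblasts, at least 758-fold lower. The adjusted p of Col9a2, Fbln7 and Adap1 lay just under the threshold, at 0.0491, 0.0483 and 0.0498 (edgeR). With the joined contractile cells, Adap1 and Rtn2 no longer passed, and the log2 fold change of Scara5 was -6.55.

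**Figure D2:**
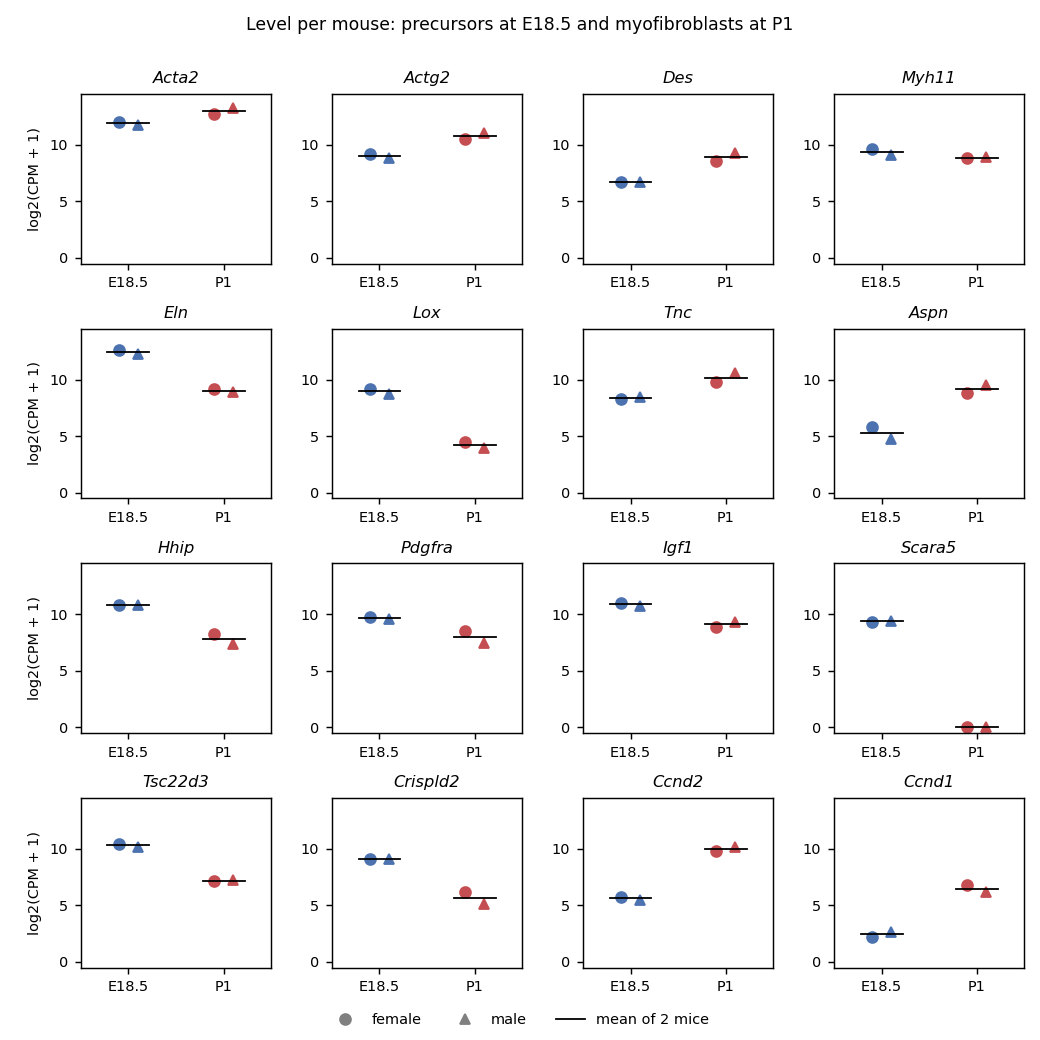
Level of 16 genes in each mouse as log2 of CPM plus 1 (vertical axes, 1 scale for all panels), with precursors at E18.5 in blue, myofibroblasts at P1 in red, circles for the female, triangles for the male and a line at the mean of 2 mice. Scara5 drops to 0 in both P1 mice, Eln and Lox lie lower and Ccnd2 and Ccnd1 higher in both P1 mice, and the shift of Acta2 and Myh11 is small.

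Among the 18 contractile protein genes, 5 rose (Actg2, Des, Tpm1, Tpm2 and Cald1), 0 fell and 13 did not pass, with a median log2 fold change of 0.95 against -0.18 over all genes. The median was 0.53 without the male P1 library and 1.27 without the female one. Over all genes tested 2.53% were called, and the counts of this and the following lists are to be read beside that share. Desmin (Des), the muscle intermediate filament, went from 106 and 102 CPM to 386 and 641 CPM (log2 2.31, SE 0.36, edgeR adjusted p 0.00654). Enteric smooth muscle actin (Actg2) went from 586 and 458 CPM to 1511 and 2162 CPM (log2 1.87, SE 0.40, edgeR adjusted p 0.0363). The groups did not overlap for either gene, and the male myofibroblasts were higher than the female ones for both. Of the Des reads, 1 cell held 21.9% in the female and 46.4% in the male myofibroblasts. The tropomyosins Tpm1 and Tpm2, which line the actin filament, had log2 fold changes of 1.41 and 1.67 (edgeR adjusted p 0.0326 and 0.0313). Caldesmon (Cald1), which holds myosin off actin, had 1.23 (edgeR adjusted p 0.0344).

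The genes most used to define smooth muscle did not pass. Acta2, smooth muscle actin, was at 4293 and 3540 CPM in the precursors and at 6755 and 10009 CPM in the myofibroblasts (log2 1.14, SE 0.34, edgeR adjusted p 0.107). Tagln had a log2 fold change of 1.42 (edgeR adjusted p 0.0621). Both passed with the joined contractile cells, at edgeR adjusted p 0.00989 for Acta2 and 0.00348 for Tagln. In early airway smooth muscle at P1, which is part of the joined cells, Acta2 was at 12654 and 12574 CPM of all reads. Tagln was at 677 and 739 CPM there. Myh11, the smooth muscle myosin heavy chain, was at 774 and 564 against 455 and 476 CPM (log2 -0.51, SE 0.32, edgeR adjusted p 0.45), and its sign turned to 0.26 with the joined cells. Calponin (Cnn1) was at 56.9 and 21.5 against 73.3 and 326 CPM, and its log2 fold change of 2.53 (edgeR adjusted p 0.156) came to 0.50 without the male P1 library. With the joined cells, which include early airway smooth muscle, Cnn1 passed at a log2 fold change of 4.71 (edgeR adjusted p 6.15e-05). Of the 16 regulators of contraction, among them Myocd, Srf and Rock1, 0 rose and 0 fell, with a median of -0.20. With 2.53% called over all genes, a count of 0 in a list of this size does not set it apart.

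Of the 21 channels and receptors of muscle tone, 2 rose (Ryr3 and Pde5a) and 2 fell, Ednrb among them. The endothelin receptor Ednrb was at 5227 and 3888 CPM in the precursors and at 636 and 849 CPM in the myofibroblasts (log2 -2.61, SE 0.38, edgeR adjusted p 0.00484). Pde5a, which breaks down cyclic GMP, rose with a log2 fold change of 1.69 (edgeR adjusted p 0.0301). The rise of Ryr3, a calcium release channel, rested on 1 cell in each P1 mouse, which held 100% of its reads in the female and nearly all in the male.

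Among the 13 myofibroblast markers, 2 rose (Aspn and Stc1), 5 fell (Pdgfra, Hhip, Enpp2, Net1 and Igf1) and 6 did not pass. Hhip, a decoy receptor that binds Hedgehog ligands and is itself a Hedgehog target, was at 1830 and 1764 CPM in the precursors and at 307 and 162 CPM in the myofibroblasts. Both P1 values lay under both E18.5 values (log2 -2.95, SE 0.46, edgeR adjusted p 0.00755). Pdgfra, the receptor of PDGF-A, went from 858 and 762 to 366 and 173 CPM (log2 -1.63, SE 0.38, edgeR adjusted p 0.0478). Enpp2, the enzyme autotaxin that makes lysophosphatidic acid, went from 1309 and 1587 to 370 and 200 CPM (log2 -2.35, edgeR adjusted p 0.00618). Asporin (Aspn), a small leucine-rich proteoglycan, went from 53.8 and 25.9 to 450 and 746 CPM (log2 4.02, SE 0.55, edgeR adjusted p 0.00373). Its reads were concentrated, since 1 cell held 56.4% of them in the female and 44.3% in the male myofibroblasts. Stc1, a secreted glycoprotein, went from 35.6 and 81.8 to 1231 and 549 CPM (log2 3.87, SE 0.49, edgeR adjusted p 0.00293). Tgfbi did not pass (log2 0.15, edgeR adjusted p 0.785), and neither did Fgf18 or Wnt5a.

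In the signalling lists most members did not pass. The shares called in the Hedgehog, PDGF and FGF, and Wnt lists lay above the 2.53% called over all genes tested. Whether a list differed from all genes was not tested. Of 14 Hedgehog pathway genes, Hhip and the co-receptor Boc fell (Boc log2 -2.27, edgeR adjusted p 0.021) and 0 rose. The Hedgehog targets Gli1 and Ptch1 did not pass, at log2 fold changes of 0.93 and -0.94 (edgeR adjusted p 0.576 and 0.327), and Gli1 was at 22.9 and 19.3 against 8.53 and 72.3 CPM, so its myofibroblast values fell on both sides of the precursors. Of 22 PDGF and FGF pathway genes, Pdgfra fell and 2 feedback or target genes of FGF signalling rose. Spry4, which dampens receptor tyrosine kinase signalling, went from 21.3 and 37.5 to 170 and 218 CPM (log2 2.73, SE 0.41, edgeR adjusted p 0.00601). Etv4, a transcription factor downstream of FGF, went from 1.14 and 0.0309 to 20.6 and 20.3 CPM (edgeR adjusted p 0.0415), and its relative Etv5 had a log2 fold change of 2.63 that did not pass (edgeR adjusted p 0.0827).

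Of 23 Wnt pathway genes, 0 rose and 2 fell. The R-spondin receptor Lgr6 went from 313 and 270 to 88.4 and 12.4 CPM (log2 -2.65, edgeR adjusted p 0.0478), and the secreted Wnt inhibitor Wif1 went from 422 and 467 to 134 and 77.3 CPM (log2 -2.14, edgeR adjusted p 0.0373). With the joined contractile cells the log2 fold change of Wif1 was -0.60 and did not pass. The list's median was -1.99, or -1.40 with genes at 0 reads in a group set to the bound of 3 counts. It lay between -2.39 and -0.62 over the alternatives, and the latter was with the cells joined. Axin2, a general Wnt target, had a log2 fold change of -1.99 (edgeR adjusted p 0.0954). Of 27 TGF-beta and BMP genes and 9 Notch genes, 0 rose and 0 fell.

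Among 21 elastic fibre genes, 4 fell (Eln, Mfap4, Ltbp4 and Lox) and 1 rose (Loxl1). Elastin (Eln), the core of the fibre, was at 6303 and 4924 CPM in the precursors and at 558 and 482 CPM in the myofibroblasts. The mean was 5614 ± 975 CPM (SD, n = 2) against 520 ± 53.8 CPM, with no overlap (log2 -3.43, SE 0.28, edgeR adjusted p 0.000388). The log2 fold change was -3.50 within the female run and -3.35 within the male run, and -2.91 with the joined contractile cells. Lysyl oxidase (Lox), which cross-links elastin and collagen, went from 563 and 432 to 20.8 and 14.3 CPM (log2 -4.83, SE 0.48, edgeR adjusted p 0.00111). Of the thinned cells, 89.1% and 85.8% of precursors and 20.6% and 18.5% of myofibroblasts had a Lox read (90.1% and 91.1% against 23.1% and 15.6% without thinning). Its relative Loxl1 went the other way, from 33.8 and 27.6 to 117 and 224 CPM (log2 2.46, SE 0.48, edgeR adjusted p 0.0254). The reads of Loxl1 were concentrated, with 43.0% in 1 cell of the female and 47.5% in 1 cell of the male myofibroblasts. Mfap4 and Ltbp4, proteins that associate with the fibre, had log2 fold changes of -2.89 and -1.81 (edgeR adjusted p 0.00337 and 0.0254). The microfibril gene Fbn1 did not pass (log2 0.38, edgeR adjusted p 0.537). The list's median was -0.07, beside -0.18 over all genes, and it ranged from -0.54 to 0.47 over the alternatives, with the cells joined at 0.47. In the 2 P7 libraries in normal air, Eln was at 2166 and 1589 CPM, between the levels of the precursors and of the P1 myofibroblasts.

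Of 22 fibrillar collagen and collagen-processing genes, Col12a1 rose (log2 2.20, edgeR adjusted p 0.0313) and Col14a1 and P4ha3 fell (log2 -3.61 and -1.83, both edgeR adjusted p 0.021). The main fibril chains did not pass. Col1a1 was at 977 and 1067 against 995 and 1274 CPM, so its groups overlapped (log2 0.15, edgeR adjusted p 0.815), and Col3a1 had a log2 fold change of -0.08 (edgeR adjusted p 0.918). Of 18 basement membrane genes, the laminin chain Lama4 and the linker nidogen (Nid1) fell (log2 -1.87 and -1.99, edgeR adjusted p 0.0257 and 0.0229) and 0 rose. Of 20 matricellular genes, 3 rose and 1 fell. Tenascin C (Tnc) went from 314 and 358 to 860 and 1515 CPM (log2 1.80, SE 0.29, edgeR adjusted p 0.00891), and Wisp1, a Wnt-induced secreted protein, from 22.9 and 22.8 to 87.7 and 214 CPM (log2 2.73, edgeR adjusted p 0.019). Sparcl1, a secreted glycoprotein, went from 2073 and 2392 to 357 and 250 CPM (log2 -2.88, SE 0.30, edgeR adjusted p 0.00111). The gelatinase Mmp2 also fell, from 2684 and 3384 to 538 and 691 CPM (log2 -2.30, SE 0.25, edgeR adjusted p 0.00121).

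**Figure D3:**
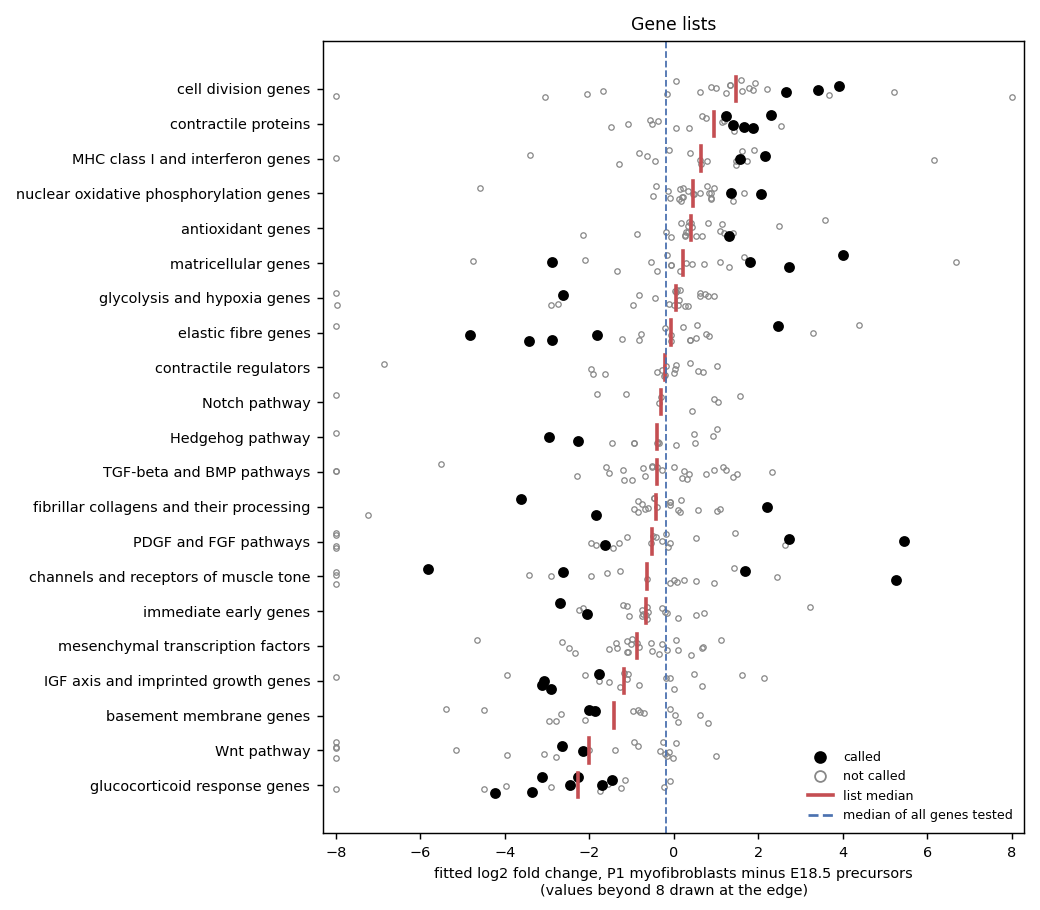
Fitted log2 fold change of each member (horizontal axis, P1 myofibroblasts minus E18.5 precursors, values beyond 8 drawn at the edge) of the 21 pathway lists (vertical axis, ordered by median), with genes called in black, others as open circles, the list median in red and the median of all genes as a dashed line. The glucocorticoid response list has the lowest median (-2.26) and the cell division list the highest (1.47).

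All 17 glucocorticoid response genes had a fitted log2 fold change below 0, with a median of -2.26, and 7 fell: Fkbp5, Tsc22d3, Klf9, Dusp1, Mt1, Cebpd and Crispld2. Under every alternative that was run the median stayed between -2.69 and -1.89. Tsc22d3, which encodes the glucocorticoid-induced leucine zipper, was at 1377 and 1161 CPM in the precursors and at 138 and 150 CPM in the myofibroblasts (log2 -3.12, SE 0.34, edgeR adjusted p 0.00121). Of the thinned cells, 96.0% and 90.0% of precursors and 47.1% and 37.0% of myofibroblasts had a read (96.0% and 89.4% against 41.0% and 34.4% without thinning). Fkbp5, a chaperone that restrains the receptor, went from 147 and 164 to 27.1 and 29.7 CPM (log2 -2.46, SE 0.50, edgeR adjusted p 0.0299). Crispld2, a secreted protein of lung mesenchyme, went from 534 and 550 to 73.3 and 33.4 CPM (log2 -3.36, SE 0.50, edgeR adjusted p 0.00572). Metallothionein 1 (Mt1) went from 299 and 591 to 30.9 and 16.4 CPM (log2 -4.24, SE 0.57, edgeR adjusted p 0.00337). The receptor gene itself, Nr3c1, did not pass (log2 -1.16, edgeR adjusted p 0.148), and Per1 lay just outside the threshold (log2 -1.75, edgeR adjusted p 0.0505). Both passed with the joined contractile cells (edgeR adjusted p 0.0367 and 0.00976).

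Of 21 immediate early genes, Jun and Fosb fell (log2 -2.70 and -2.05, edgeR adjusted p 0.0112 and 0.0421), 0 rose, and Fos lay just outside the threshold (log2 -1.10, edgeR adjusted p 0.0501). Txnip, Fmo2, Ndrg2 and Crh, which also fell, belong to no list and were chosen after their values had been seen. Txnip, which binds thioredoxin, went from 647 and 713 to 58.5 and 7.97 CPM (log2 -4.40, SE 0.64, edgeR adjusted p 0.00495). Fmo2, a flavin monooxygenase, went from 1435 and 1346 to 104 and 94.4 CPM (log2 -3.81, SE 0.33, edgeR adjusted p 0.000458). Ndrg2 went from 559 and 619 to 19.6 and 30.0 CPM (log2 -4.55, SE 0.45, edgeR adjusted p 0.00111). Crh, corticotropin-releasing hormone, was at 857 and 627 CPM in the precursors and was read in 1 of the 71 myofibroblasts, at 59.6 and 0 CPM (edgeR adjusted p 0.00377).

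Of 21 genes of the IGF axis and imprinted growth genes, 4 fell (Igf1, H19, Peg3 and Nnat) and 0 rose, with a median of -1.17, and of -0.41 with the cells joined. Igf1, the growth factor, went from 2081 and 1670 to 465 and 653 CPM (log2 -1.76, SE 0.31, edgeR adjusted p 0.0155). The imprinted genes H19 and Peg3 had log2 fold changes of -3.12 and -3.06 (edgeR adjusted p 0.00777 and 0.00511). Nnat went from 1870 and 2047 to 359 and 176 CPM (log2 -2.90, SE 0.37, edgeR adjusted p 0.00286). Igf2 was lower in both P1 mice and did not pass (log2 -1.77, edgeR adjusted p 0.0717), but passed with the cells joined (log2 -1.69, edgeR adjusted p 0.0414).

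Of 24 cell division genes, 3 rose (Rrm2, Mcm2 and Mcm5) and 0 fell, with a median of 1.47. All 3 belong to DNA replication, the MCM proteins as parts of the replicative helicase and Rrm2 as a subunit of the enzyme that makes deoxynucleotides. Mcm2 went from 12.2 and 12.0 to 138 and 116 CPM (log2 3.40, SE 0.59, edgeR adjusted p 0.0133). Mcm5 went from 15.2 and 21.2 to 165 and 75.1 CPM (log2 2.66, SE 0.53, edgeR adjusted p 0.0267), and 2.0% and 2.5% of thinned precursors and 35.3% and 25.9% of thinned myofibroblasts had a read (1.98% and 3.25% against 30.8% and 21.9% without thinning). With the cells joined, Mcm5 came to a log2 fold change of 1.62 and did not pass (edgeR adjusted p 0.111). The reads of Rrm2 were concentrated, since 1 cell held 66.4% of them in the female and 96.7% in the male. The proliferation marker Mki67 did not differ beyond its spread, at 63.3 and 22.8 against 21.4 and 56.6 CPM (log2 -0.15, edgeR adjusted p 0.951). Cells that the labels call proliferating myofibroblasts were kept out of these sums.

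Tubb5, Tagln2, Srm and Slc25a5, which rose, belong to no list and were chosen after their values had been seen. Tubb5, a beta-tubulin, went from 836 and 1087 to 3855 and 5269 CPM (log2 2.24, SE 0.24, edgeR adjusted p 0.00111). Vimentin (Vim), a filament protein from the mesenchyme marker list, went from 507 and 569 to 1641 and 2160 CPM (log2 1.82, SE 0.27, edgeR adjusted p 0.00511), and Tagln2 from 76.5 and 132 to 834 and 1182 CPM (log2 3.27, SE 0.35, edgeR adjusted p 0.00111). Srm, which makes the polyamine spermidine, went from 36.0 and 48.9 to 414 and 544 CPM (log2 3.49, SE 0.37, edgeR adjusted p 0.00111). Slc25a5, the mitochondrial carrier of ADP and ATP, went from 211 and 224 to 1598 and 1208 CPM (log2 2.68, SE 0.28, edgeR adjusted p 0.00111). Tubb5, Slc25a5, Nme1 and Ran have near-identical copies or pseudogenes, as do Acta2 with Actg2 and Mt1 with Mt2, so their counts are uncertain to the extent that reads were shared.

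In the remaining lists most members did not pass, which also held for all genes tested, of which 2.53% passed. Of 25 nuclear oxidative phosphorylation genes 2 rose (Uqcrq and Atp5g1) and 0 fell. Of 23 antioxidant genes Prdx1 rose (log2 1.31, edgeR adjusted p 0.0373) and 0 fell. Of 19 MHC class I and interferon genes H2-D1 and Ifitm3 rose (log2 2.15 and 1.56, edgeR adjusted p 0.0395 and 0.0143) and 0 fell. Of 23 glycolysis and hypoxia genes Bnip3, a mitophagy receptor, fell (log2 -2.62, edgeR adjusted p 0.00914) and 0 rose, while Angptl4, a lipoprotein lipase inhibitor outside the list, rose from 18.2 and 9.09 to 318 and 172 CPM (log2 4.18, edgeR adjusted p 0.00111). Of 25 mesenchymal transcription factors 0 passed. The pericyte-associated genes Rgs5 and Cspg4 fell (log2 -4.69 and -3.28, edgeR adjusted p 0.00337 and 0.0461) among 11 vascular muscle and pericyte markers tested, and the summed level of that list was 1004 and 903 CPM of all reads against 761 and 700. The summed level of the 12 alveolar and adventitial fibroblast markers was 401 and 468 against 84.5 and 120 CPM.

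The promoters of 4 members are printed, 1 for each of the 4 motifs described here that matched a gene named in the text, so that the site can be seen in its context. RefSeq promoter sequences (GRCm38.p6) were matched for 10649 of the 14205 genes tested, and both strands of 300 bases, 250 before and 50 after the start, were searched. The CArG box, bound by serum response factor, was in 1.65% of them and in 2 of 14 contractile protein genes, Myl9 and Myl6. The GLI site GACCACCCA was in 0.244% of them and in 0 of 9 Hedgehog pathway genes. The other 3 motifs were chosen after the values had been seen. The palindromic glucocorticoid receptor site was in 0.376% of all promoters and in 2 of 14 glucocorticoid response genes, Mt1 and Sgk1. The E2F site TTTGGCGC was in 1.13% and in 3 of 20 cell division genes, Mcm3, Mcm5 and Mcm6. The site TGATGAAA, which is known from the amino acid response of Asns, was in 0.704%. A match is a description of the letters and not a bound site. The 250 bases before the start are given 5′ to 3′ on the gene's strand, with the motif in capitals.
Mt1 (GRCm38.p6 chr8:94178839-94179088, plus strand): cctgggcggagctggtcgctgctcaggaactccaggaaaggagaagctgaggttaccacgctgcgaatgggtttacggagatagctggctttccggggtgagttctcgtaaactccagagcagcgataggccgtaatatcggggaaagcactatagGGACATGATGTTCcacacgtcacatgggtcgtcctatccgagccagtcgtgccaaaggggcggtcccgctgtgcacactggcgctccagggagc
Mcm5 (GRCm38.p6 chr8:75109259-75109508, plus strand): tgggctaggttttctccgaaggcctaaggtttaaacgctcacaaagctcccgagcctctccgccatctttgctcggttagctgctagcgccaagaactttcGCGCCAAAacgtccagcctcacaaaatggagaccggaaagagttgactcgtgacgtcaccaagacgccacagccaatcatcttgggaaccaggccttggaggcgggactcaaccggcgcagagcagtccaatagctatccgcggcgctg
Asns (GRCm38.p6 chr6:7693210-7693459, minus strand): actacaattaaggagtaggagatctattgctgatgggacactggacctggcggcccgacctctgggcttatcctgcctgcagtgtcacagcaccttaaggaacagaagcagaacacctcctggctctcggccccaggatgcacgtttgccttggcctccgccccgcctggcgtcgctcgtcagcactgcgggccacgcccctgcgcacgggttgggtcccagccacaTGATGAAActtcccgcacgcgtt
Myl9 (GRCm38.p6 chr2:156775214-156775463, plus strand): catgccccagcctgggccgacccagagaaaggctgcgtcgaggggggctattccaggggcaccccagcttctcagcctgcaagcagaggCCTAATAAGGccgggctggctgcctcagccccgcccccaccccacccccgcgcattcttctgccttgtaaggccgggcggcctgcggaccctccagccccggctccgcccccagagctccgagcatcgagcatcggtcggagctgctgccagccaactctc
Mt1 fell, Mcm5 and Asns rose, and Myl9, a myosin light chain, did not pass (log2 0.76, edgeR adjusted p 0.255). The motif ended 82 bases before the start in Mt1, 142 in Mcm5, 16 in Asns and 152 in Myl9.

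A small number of cells carried the other label at each age. At P1, 7 cells of each mouse were still labelled as precursors, under the 10 cells set for a test. On the scale of all reads, their Eln level was 181 CPM in the female and 218 CPM in the male, beside 569 and 433 CPM in the P1 myofibroblasts and 6228 and 5038 CPM in the E18.5 precursors. Tsc22d3 stood at 126 and 68.0 CPM in these P1 precursors, beside 140 and 135 CPM in the P1 myofibroblasts, and Lox at 23.6 and 36.7 beside 21.2 and 12.9 CPM. Both genes were far lower there than in the E18.5 precursors. Hhip stood at 679 and 694 CPM, between the E18.5 precursors (1808 and 1805) and the P1 myofibroblasts (313 and 145). Ccnd2 was at 404 and 185 CPM, again between the other 2, and Aspn was at 0 in both. At E18.5, 7 male cells were labelled as myofibroblasts, with a median of 934 genes, and they are not compared for that reason.

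At P1 the myofibroblasts stood beside early airway smooth muscle, with 38 cells in the female and 23 in the male, and both subtypes were compared within mice. This used 12 libraries of 6 mice at P1 and P7, with both hyperoxia mice among them. Of 14244 genes, 32 (0.225%) passed, 4 higher and 28 lower in myofibroblasts, and 1772 had an unadjusted p under 0.05. The edgeR calls were lost when any 1 of the 6 mice was left out, so the named differences rest on the full set of mice. DESeq2 called 2092. In simulated data of this design with 200 genes changed, 177 of its 262 calls were false at 4-fold and 229 of 406 at 16-fold. That share depends on the number of genes changed. In the order female and male myofibroblasts, female and male airway muscle, Myh11 was at 440 and 461 against 1309 and 1439 CPM (log2 -1.61, SE 0.19, edgeR adjusted p 0.031), Actg2 at 1464 and 2094 against 4739 and 5857 CPM (log2 -1.59, edgeR adjusted p 0.0404), and Des at 373 and 621 against 1071 and 1526 CPM (log2 -1.41, edgeR adjusted p 0.0341). All 3 contractile genes were thus lower in myofibroblasts than in airway muscle of the same mouse. Eln was at 540 and 467 against 1206 and 1099 CPM (log2 -1.20, edgeR adjusted p 0.0334), and Col1a1 at 964 and 1234 against 2372 and 2755 CPM (log2 -1.23, edgeR adjusted p 0.031).

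The largest fitted differences toward airway muscle were Anxa8, Pde4d and Pgf. Anxa8, an annexin, had 0 reads in the P1 myofibroblasts and 4701 in airway muscle, at least 1570-fold lower. Pde4d, which breaks down cyclic AMP, was at 1.27 and 2.79 against 84.1 and 174 CPM (edgeR adjusted p 0.031), and placental growth factor (Pgf) at 2.29 and 0.536 against 97.6 and 73.9 CPM (edgeR adjusted p 0.0377). Toward myofibroblasts they were Gap43, Car2 and Ccnd2. Gap43, a growth-associated protein, was at 128 and 158 against 0.545 and 4.93 CPM (edgeR adjusted p 0.0377), and 1 cell held 51.8% of its female and 86.15% of its male myofibroblast reads. Carbonic anhydrase 2 (Car2) was at 3214 and 4458 against 1155 and 1134 CPM (log2 1.73, SE 0.14, edgeR adjusted p 0.0216), and Ccnd2 at 851 and 1145 against 282 and 355 CPM (log2 1.64, SE 0.19, edgeR adjusted p 0.031). Several genes listed as myofibroblast markers were not higher in the myofibroblasts: Igf1, Net1 and Tgfbi were lower (log2 -1.21, -1.95 and -1.01, edgeR adjusted p 0.0404, 0.031 and 0.0377), and Aspn, at 436 and 722 against 4375 and 3360 CPM, did not pass (edgeR adjusted p 0.0774). Pdgfra was at 354 and 167 against 65.5 and 78.2 CPM and did not pass (log2 1.78, edgeR adjusted p 0.202). Stc1 was at 1256 and 493 against 85.1 and 11.6 CPM of all reads and did not pass either.

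**Figure D4:**
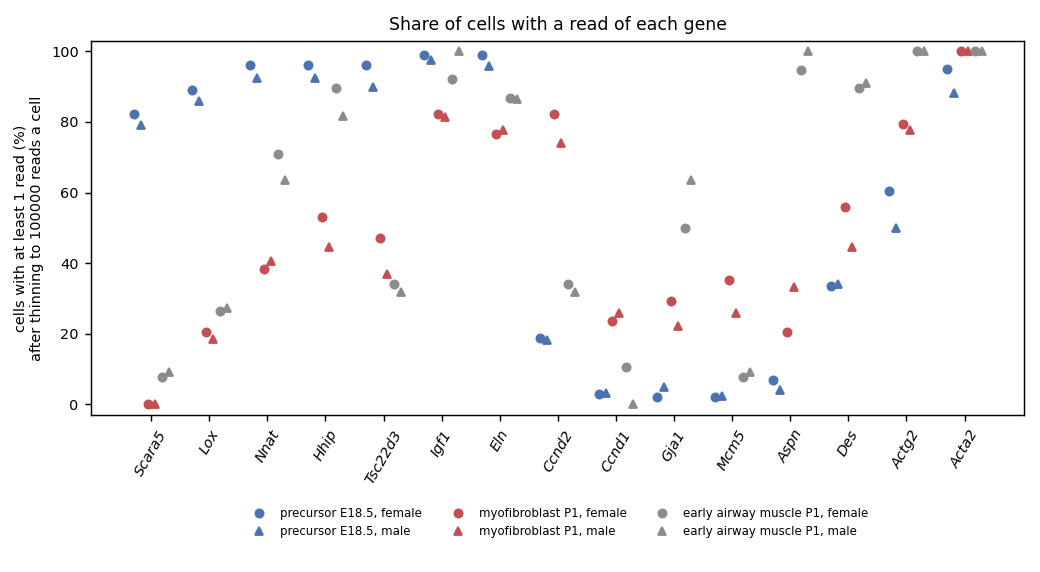
Share of cells with at least 1 read of 15 genes after thinning to 100000 reads a cell (vertical axis, percent), in precursors at E18.5 (blue, 101 female and 120 male cells), myofibroblasts at P1 (red, 34 and 27) and early airway muscle at P1 (grey, 38 and 22), with circles for females and triangles for males. Scara5 is read in 0% of the myofibroblasts and Ccnd2 in a larger share of myofibroblasts than of either other class, while Aspn and Des are read in the largest shares of airway muscle cells.

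The change from precursor to myofibroblast was also set against the change of 3 other mesenchymal classes of the same 4 mice over the same interval: fibroblast precursors to early alveolar fibroblasts, early adventitial fibroblasts at both ages and pericytes at both ages. The contractile libraries are the same as above, so this asks only whether their change differed from the mean change of the others. Of 15394 genes, 47 (0.305%) passed, 21 with a more positive and 26 with a more negative change in contractile cells, and 1441 had an unadjusted p under 0.05. Without any 1 of the 4 mice 0 to 4 genes passed, and against the alveolar class alone 9. The mean CPM of Ccnd2 went from 47.8 to 948 in the contractile cells, while it went from 212 to 319 in the alveolar, from 356 to 581 in the adventitial class and from 1177 to 1167 in pericytes (difference of log2 changes 3.85, SE 0.34, edgeR adjusted p 0.00045). Contractile precursors thus had the lowest Ccnd2 of the 4 classes at E18.5, and at P1 the myofibroblast mean lay above the alveolar and adventitial means and below that of pericytes.

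Eln changed by -3.52 on the log2 scale in contractile cells, by -0.68 in the alveolar and by -0.14 in the adventitial class, and by -1.93 in pericytes (difference -2.60, SE 0.41, edgeR adjusted p 0.0256). Sparcl1 and Mmp2 were the most significant falls, with differences of -3.03 and -3.11 (both edgeR adjusted p 0.000222). Large fitted differences were positive for Tcf19, Aspn and Lpar1 and negative for Pgf and Stard13. Aspn changed by 3.86 in contractile cells, by -0.01 and 0.11 in the fibroblast classes and by -3.37 in pericytes (edgeR adjusted p 0.0122). Tcf19 changed by 4.20 in contractile cells and by -2.33, 0.29 and -3.83 in the others (edgeR adjusted p 0.0174), with 27.6% of its female and 65.4% of its male myofibroblast reads in 1 cell. Desmin was the 1 contractile protein gene that passed (difference 2.83, edgeR adjusted p 0.0473), with 46.4% of its male myofibroblast reads in 1 cell.

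Of the glucocorticoid response genes, Tsc22d3 alone passed this test. It changed by -3.23 in contractile cells, -0.43 in the alveolar and -2.14 in the adventitial class and 0.39 in pericytes (difference -2.52, SE 0.40, edgeR adjusted p 0.0256). Fkbp5 changed by -2.54 in contractile cells and by -3.34, -2.46 and -9.27 in the others (edgeR adjusted p 0.738), and Klf9 by -2.32 against -0.89, -0.70 and -1.09 (edgeR adjusted p 0.47). For these 2 genes a difference between classes was not shown. Lox, with -4.93 against -2.21, -1.82 and -4.35, did not pass either (edgeR adjusted p 0.308).

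**Figure D5:**
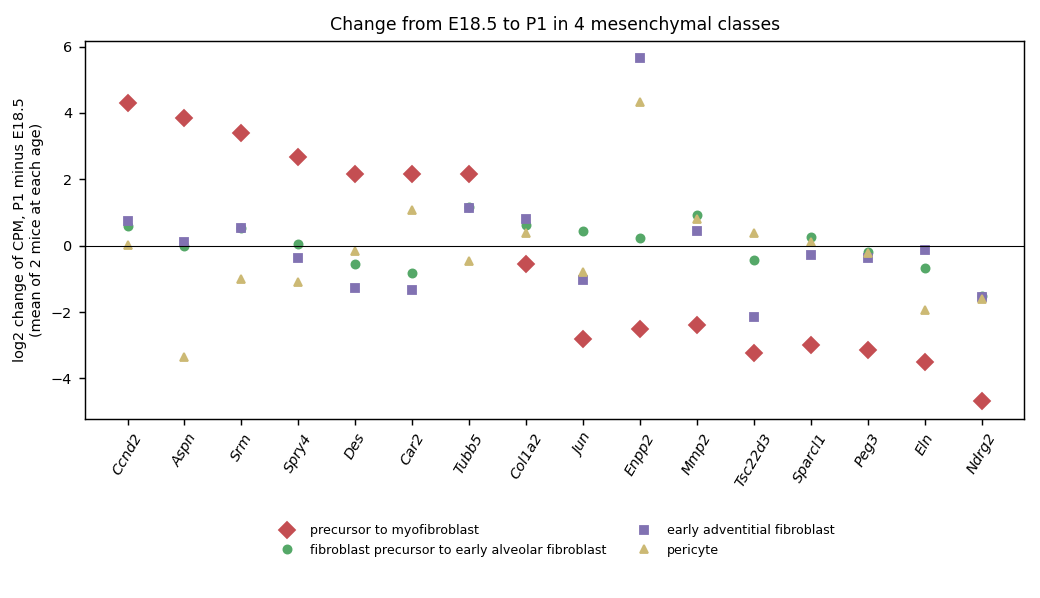
Log2 change of CPM from E18.5 to P1 (vertical axis, mean of 2 mice at each age) in 4 mesenchymal classes for 16 genes that passed the test of the difference (horizontal axis). The red diamonds, from precursors to myofibroblasts, are the highest symbol for the 7 genes on the left and the lowest for the 9 on the right.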

How the data were processed

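Single cells of the distal lung were sequenced on plates without molecular identifiers, and the authors deposited whole-number read counts per gene and cell. STAR 2.5.2b and HTSeq 0.10 are named in the submitters' processing notes, which list GRCh38, a human build, for these mouse data, so no coordinate was taken from the counts. Of the cell columns, 42 were not used, which left 5438 cells and 18072 genes. Counts were summed per mouse and subtype (at least 10 cells) and tested with edgeR 4.0.16 (TMM, low-count filter, quasi-likelihood, a sex term or a mouse block, Benjamini-Hochberg threshold 0.05) in R 4.3.3. DESeq2 1.42.0 and limma 3.58.1 served as alternatives. Thinning took each cell to 100000 reads and left out 163 shallower cells. Doublets were not called. In simulated data of the 3 designs with 200 genes changed, more DESeq2 calls were false than true. That share depends on the number of genes changed and does not carry over to the real counts. At 4-fold edgeR recovered 16% of the changed genes in the main, 9.5% in the airway muscle and 1% in the class comparison. At 16-fold it recovered 70%, 57% and 30.5%. A gene that did not pass may therefore still differ, most of all in the comparison between classes.

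The members and lists were chosen with earlier results of these data known. Named genes were the 10 largest fitted rises and falls among called genes with at least 10 CPM in a group and the same direction in both sexes, members of the lists, and up to 3 genes each way in the other 2 tests. Genes outside these rules (Fmo2, Ndrg2, Txnip, Mmp2, Angptl4, Srm, Slc25a5, Tubb5, Tagln2, Crh, Ccnd1, Cdkn1a, Mif, Ran, Nme1, Stmn3, Serpina3g) were chosen after their values were seen. Intervals cover counting error only. The main comparison had 2 mice a side, but its p-values rest on the spread over all 8 libraries of the fit. Mice of a later age, some of them in hyperoxia, were among these libraries. With only the libraries of the contrast itself, 0 genes passed. In the main test the p-values describe the spread of the libraries that remains after the group and sex terms. In the other 2 tests, with the mouse as a block, they describe how differences between subtypes vary from mouse to mouse. Genes withheld from the text are not reported here.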

Additional observations from a re-analysis of the deposited data

Results flagged for a closer look

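In 26 of the genes named here the change from E18.5 to P1 in contractile cells differed from the mean change of the 3 other mesenchymal classes by the edgeR test of that difference. The differences of log2 changes were positive for 13 of them. They were 5.86 for Tcf19, 4.95 for Aspn, 4.87 for Lpar1, 3.85 for Ccnd2, 3.39 for Tagln2, 3.32 for Srm, 3.09 for Spry4, 2.83 for Des, 2.73 for Mif, 2.66 for Ran, 2.52 for Car2, 2.06 for Slc25a5 and 1.54 for Tubb5. The negative differences were -7.07 for Pgf, -5.98 for Stard13, -4.81 for Enpp2, -4.25 for Txnip, -3.11 for Mmp2, -3.08 for Ndrg2, -3.03 for Sparcl1, -2.89 for Peg3, -2.60 for Eln, -2.52 for Tsc22d3, -2.34 for Jun, -1.92 for Nid1 and -1.16 for Col1a2.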

How the results depend on the processing

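The count of 359 genes came to 2223 with DESeq2, 238 without a low-count filter, 209 with the older quasi-likelihood method, 549 with thinned cells, 154 without the hyperoxia libraries (an alternative chosen after seeing the data) and 0 with the 4 libraries of the contrast alone. Leaving out 1 library gave 0 to 203, with 6 without the female E18.5 library and 101 without the male P1 library. The 32 genes of the airway muscle comparison came to 2092 with DESeq2, 146 with thinned cells and 0 with the 4 libraries at P1, and to 0 without any 1 mouse. The 47 genes of the comparison between classes came to 1176 with DESeq2, 98 with thinned cells, 9 against the alveolar class alone, and 0 to 4 without 1 mouse, with 3 without the female P1 mouse. The cause was not tested. Of 101 named genes called, 99 kept their direction in all 22 settings, and 4, 0, 63 and 43 were called without the female E18.5, male E18.5, female P1 and male P1 library. The other 2 reversed: Stmn3 to -3.81 without the female P1 library (17.04 without the male one) and -0.44 within the males' run, and Serpina3g to -2.60 without the male P1 library (12.22 without the female one) and -1.06 within the females' run. Precursors and myofibroblasts came from different mice, so mice could not be paired. Sex, which coincides with the run at both ages, was a term in the fit and pairs the ages within a run. Without it 482 genes passed. The other 2 tests had the mouse as a block.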
